A study of Arabidopsis thaliana with 12 samples.

Results

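The phosphate status genes examined here are 10 Arabidopsis genes chosen by name. They are the SPX-domain genes SPX1 (AT5G20150), SPX2 (AT2G26660) and SPX3 (AT2G45130), the lipid genes SQD1 (AT4G33030), SQD2 (AT5G01220) and MGD2 (AT5G20410), the transport genes PHO1 (AT3G23430), PHO2 (AT2G33770) and PHF1 (AT3G52190), and the regulator PHR1 (AT4G28610). All 10 are among the 33610 genes of the deposited count table, and 9 of them, all but SPX3, passed the filter on low counts that left 17588 genes for testing. The rule that names them uses no measured value.

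The samples are 12 RNA-seq libraries of whole rosettes of the accession Col-0, 21 days old and grown in FlowPots, a peat-based gnotobiotic system. Holoxenic plants, HO-MSU and HO-Malaka, received a live slurry of the MSU soil from Michigan or of the Malaka grassland soil from Iowa, and axenic plants, AX-MSU and AX-Malaka, received that slurry after autoclaving, with 3 libraries in each of the 4 groups. Each library is a pool of 8 rosettes from 4 FlowPots of the same microbox. All plants carried the wild-type alleles and grew in the peat-based substrate supplied with a buffered liquid nutrient medium. By the paper's recipe that medium (LS) contains phosphate, as a potassium salt. The sample descriptions call the second soil Laurel where the titles and the columns of the table say Malaka, and they were taken to be the same soil. The comparison of HO with AX plants within each soil asks whether a live community changes the phosphate status that these transcripts report. The comparison of the soils within HO or AX plants asks whether the source of the slurry does.

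Plants short of phosphate switch on a set of genes through PHR1, a MYB-type transcription factor that binds a short palindrome called P1BS in their promoters. When phosphate is ample, inositol pyrophosphates let SPX proteins hold PHR1 away from DNA, and since the SPX genes are themselves PHR1 targets, their transcripts are widely used as reporters of phosphate status. Starved leaves also replace membrane phospholipids with sulfolipid and galactolipid, and the microRNA miR399 lowers PHO2, the ubiquitin-conjugating enzyme that removes phosphate exporters and transporters.

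P1BS is written GNATATNC, the same on both strands. It was searched in the 500 bases before each annotated gene start of the RefSeq annotation of TAIR10.1, and 3 of the 10 genes held a match, against 2937 of 27443 protein-coding promoters (10.7%). SPX3 held 2 matches, and SQD2 and MGD2 had 1 each, while in a wider list of phosphate genes described below 22 of 59 had a match (37.3%). That list includes microRNA genes, which the protein-coding background does not. Among them, the windows of MIR399D and MIR399E overlap, so the same matches are counted for both. The stretches of SPX3, SQD2 and MGD2 are shown because they carry a match to the element that PHR1 binds. That of AT4, a transcript described below, is shown as well, picked from the 22 after its values were seen. The match is in capitals, and each run is read on the strand of its gene.
SPX3, chr2:18606279-18606368, plus strand: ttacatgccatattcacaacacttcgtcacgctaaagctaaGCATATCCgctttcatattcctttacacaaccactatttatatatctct
SQD2, chr5:90409-90498, minus strand: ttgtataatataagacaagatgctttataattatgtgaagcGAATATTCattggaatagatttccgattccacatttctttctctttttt
MGD2, chr5:6896373-6896462, plus strand: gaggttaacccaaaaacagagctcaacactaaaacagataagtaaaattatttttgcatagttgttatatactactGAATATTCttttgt
AT4, chr5:894492-894581, plus strand: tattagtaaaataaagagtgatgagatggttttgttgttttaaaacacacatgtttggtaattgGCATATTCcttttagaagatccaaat
A match is only a run of letters in this window, and the windows of the other 7 of the 10 genes were without it. Of the wider-list genes that passed a test below with the filter on low counts, AT3G01310 held 1 match. WRKY6, PHT1;1, PHT1;4, PHT2;1 and GDPD2 held 0, and so did IPS1, a transcript related to AT4.

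Total counts were 10211008 to 22710086 per library. Organelle genes took 48.5% to 57.7% of the counts and nuclear ribosomal RNA genes 9.88% to 21.8%. HO-Malaka replicate 2 had the lowest TMM factor (0.788, against 0.881 to 1.12 elsewhere). Its share of ribosomal RNA was the highest, with AX-Malaka replicate 3 near it at 20.4%. Levels are given as CPM, counts per 1000000 after TMM scaling, and 3 counts in a library are worth 0.134 to 0.303 CPM. The tissue label fits the leaf markers RBCS1A, LHCB1.1 and CA1, whose summed level was 6031 to 6443 CPM in HO-MSU, 6862 to 7144 in AX-MSU, 6526 to 7262 in HO-Malaka and 7167 to 7353 in AX-Malaka plants. Of 10 root markers only PYK10, which was at 122 to 168 CPM in HO plants and 107 to 138 CPM in AX plants, was tested, and 9 others summed to under 1 CPM in every library. In bulk rosettes a change in the share of a cell type and a change in its RNA cannot be told apart.

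The 10 genes were not at 1 level. Divided by exon length, which allows genes to be compared, the mean over 12 libraries was 15.2 ± 2.25 CPM per kb (SD) for SQD1, 11.2 ± 0.890 for PHR1, 9.36 ± 0.687 for PHO2 and 6.02 ± 0.891 for SQD2. It was 1.63 ± 0.525 CPM per kb for PHO1, 1.36 ± 0.367 for SPX2, 1.12 ± 0.403 for SPX1, 1.07 ± 0.202 for PHF1 and 0.659 ± 0.256 for MGD2. The library ranges of PHO2 and SQD2 did not meet, nor did those of SQD2 and PHO1, so the order breaks into 3 tiers above SPX3. Within the tiers, neighbours in this order overlapped in their ranges.

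**Figure D1:**
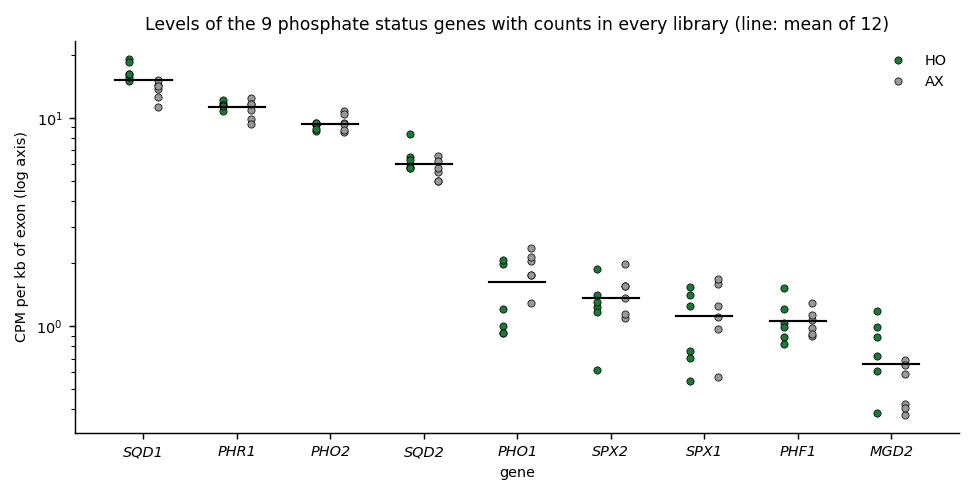
Level per kb of exon (CPM per kb, log axis) of the 9 phosphate status genes with counts in every library. Points are the 12 libraries, HO left of AX, and the line is the mean; SQD1, PHR1, PHO2 and SQD2 lie above 4.9 CPM per kb in every library and the other 5 genes below 2.4.

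Of the 9 genes tested, only SQD1 passed the test in any of the 6 comparisons. Called means a Benjamini-Hochberg FDR under 0.05 over all 17588 genes in edgeR's quasi-likelihood test. Between HO-MSU and AX-MSU plants 1 of 9 was called higher and 0 lower, against a background of 3.3% of all genes called higher and 3.28% lower. Over both soils 1 of 9 was higher and 0 lower, against 5.01% and 5.16%. Between HO-Malaka and AX-Malaka plants 0 of 9 were called, against 2.49% higher and 1.89% lower. A count of 1 is too small to set these genes apart from the background.

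The soils gave 0 calls among the 9 genes. The background between MSU and Malaka was 0.0967% of genes higher and 0.193% lower in HO plants, 0.267% and 0.381% in AX plants, and 0.148% and 0.131% for the interaction of soil and treatment. Beside these counts of 0 from edgeR, 1 gene in HO plants had an unadjusted p under 0.05 (PHO1), 0 in AX plants and 0 in the interaction, and 2 within Malaka (SQD2 and MGD2). DESeq2 called 0 in the same 4 comparisons. The median log2 fold change (log2FC) of the 9 genes, HO over AX, was -0.002 within MSU, 0.15 within Malaka and 0.04 over both soils, where the medians of all genes tested were 0.005, 0.007 and 0.005.

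**Figure D2:**
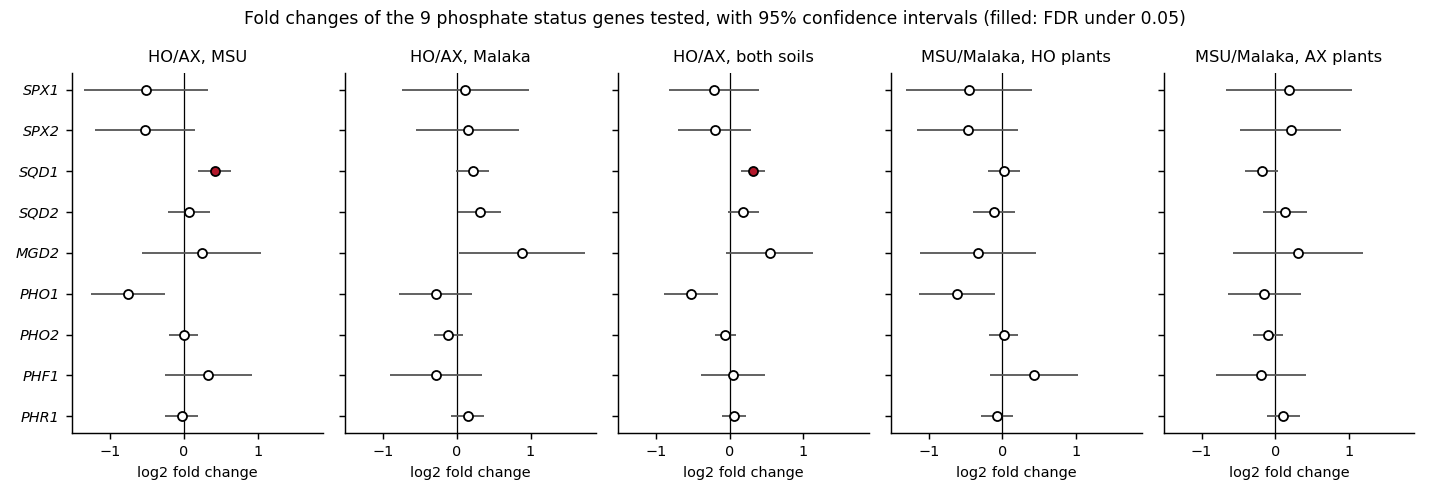
Log2 fold change of the 9 phosphate status genes tested, with 95% confidence intervals, for HO over AX plants in each soil and over both, and for MSU over Malaka in HO and in AX plants. Filled points passed an FDR of 0.05; only SQD1 did, at 0.41 within MSU and 0.32 over both soils, and the widest intervals belong to SPX1, SPX2 and MGD2.

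The SPX genes, the usual reporters of phosphate status, gave no difference between HO and AX plants that passed the test. SPX1 lies at chr5:6802282-6803655 on the plus strand with 3 exons. It was at 0.916, 0.847 and 1.51 CPM in HO-MSU plants, against 2.03, 1.17 and 1.34 CPM in AX-MSU plants. In Malaka plants SPX1 was at 1.86, 0.658 and 1.69 CPM in HO plants, against 1.92, 0.692 and 1.52 CPM in AX plants. The groups overlapped in both soils, and the spread within a group was nearly 3-fold in Malaka plants of either treatment. The log2FC was -0.52 (95% interval -1.36 to 0.33, FDR 0.563) within MSU and 0.12 (-0.75 to 0.98, FDR 0.938) within Malaka.

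SPX2, which like SPX1 restrains PHR1 in the nucleus, lies at chr2:11338752-11340950 on the plus strand with 3 exons. It was at 0.794, 1.83 and 1.51 CPM in HO-MSU plants, against 2.56, 2.00 and 1.48 CPM in AX-MSU plants. In the Malaka soil SPX2 was at 2.44, 1.60 and 1.69 CPM in HO plants, against 1.76, 2.01 and 1.42 CPM in AX plants. The ranges overlapped in both soils, and the log2FC was -0.54 (-1.22 to 0.14, FDR 0.414) within MSU and 0.15 (-0.55 to 0.84, FDR 0.895) within Malaka. Over both soils SPX1 and SPX2 had almost the same log2FC, -0.21 and -0.20, with intervals of -0.82 to 0.40 and -0.70 to 0.29. Both intervals include 0, so neither log2FC is separated from 0 by these libraries, in which SPX1 and SPX2 had 7 to 43 counts. Changes as large as the ends of those intervals are not excluded either.

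SPX3 (chr2:18606410-18607853, plus strand, 3 exons), which is strongly induced by starvation in Arabidopsis, had almost no counts. It had 1 count over the 6 HO libraries, in HO-MSU replicate 2, against 4 counts over the 6 AX libraries, 3 of them in AX-Malaka replicate 2 and 1 in AX-MSU replicate 3. The other 9 libraries had 0 counts, which allows up to 0.303 CPM in the shallowest. Every library was thus at or under the floor of 3 counts per library, and no fold is given.

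The interaction, which asks whether the effect of a live community differed between the soils, was -0.63 (-1.84 to 0.57) on the log2 scale for SPX1 and -0.68 (-1.66 to 0.29) for SPX2, with FDRs of 0.838 and 0.768. Between the soils, SPX1 gave a log2FC, MSU over Malaka, of -0.45 in HO plants and 0.19 in AX plants, and SPX2 gave -0.47 and 0.21. None of these 4 values passed the test (FDRs 0.708 to 0.938).

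**Figure D3:**
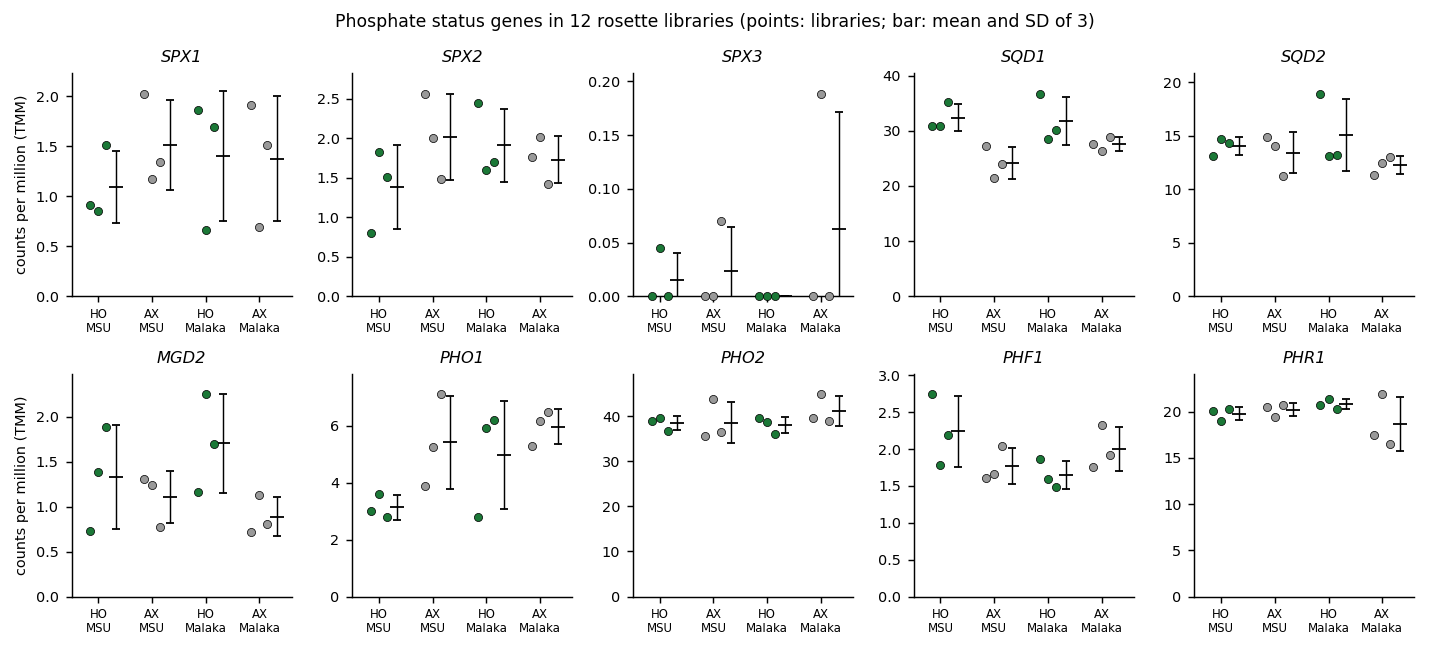
CPM of the 10 phosphate status genes in the 12 libraries (green, HO; grey, AX), with the mean and SD of 3 beside each group and each axis starting at 0, where the bars of SPX3 are cut off. The HO-MSU libraries lie above the AX-MSU libraries for SQD1 and below them for PHO1, and SPX3 had counts in 3 libraries only.

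The lipid genes gave the only call. SQD1 (chr4:15935373-15937833, plus strand, 3 exons) makes the sulfoquinovose head group of sulfolipid, and SQD2 attaches it to diacylglycerol. SQD1 was at 30.9, 31.0 and 35.2 CPM in HO-MSU plants, against 27.2, 21.4 and 24.0 CPM in AX-MSU plants. With Malaka soil, SQD1 was at 36.8, 28.6 and 30.1 CPM in HO plants, against 27.6, 26.3 and 28.9 CPM in AX plants. Every HO-MSU library was above every AX-MSU library, while in Malaka soil the lowest HO value fell just below the highest AX value.

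SQD1 rose 1.33-fold within MSU (1.14 to 1.55; log2FC 0.41, SE 0.11, FDR 0.0149) and 1.24-fold over both soils (1.11 to 1.39; log2FC 0.32, SE 0.08, FDR 0.00903). Within Malaka the ratio was 1.16 (0.994 to 1.35, FDR 0.328), and the interaction was 0.20 (-0.11 to 0.51, FDR 0.79), so a difference between the soils was not shown. The call over both soils held with each of the 12 libraries left out, at FDRs of 0.00358 to 0.0391. The call within MSU was lost without HO-MSU replicate 3 (FDR 0.109), AX-MSU replicate 2 (0.136) or AX-MSU replicate 3 (0.0604), with a log2FC of 0.35, 0.33 and 0.41. It was lost as well when libraries were scaled by total counts alone (log2FC 0.25, FDR 0.442 within MSU, and 0.21, FDR 0.306 over both soils), a scaling that moves the median of all genes to -0.16 and -0.10. Relative to that median SQD1 was at 0.41 and 0.31.

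SQD2 (chr5:86543-90117, minus strand, 12 exons) was at 13.1, 14.7 and 14.3 CPM in HO-MSU plants, against 14.9, 14.1 and 11.3 CPM in AX-MSU plants. With Malaka soil, SQD2 was at 19.0, 13.1 and 13.2 CPM in HO plants, against 11.3, 12.5 and 13.0 CPM in AX plants. The MSU groups overlapped, and in Malaka soil the HO libraries all lay above the AX libraries, 2 of them by under 0.2 CPM. The log2FC was 0.06 (-0.22 to 0.35, FDR 0.869) within MSU and 0.31 (0.02 to 0.61, FDR 0.266) within Malaka, and 0.18 (-0.03 to 0.39, FDR 0.308) over both soils.

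MGD2 (chr5:6896463-6898783, plus strand, 6 exons) encodes a monogalactosyldiacylglycerol synthase of the outer plastid envelope that serves lipid replacement in starved plants. It was at 0.733, 1.38 and 1.89 CPM in HO-MSU plants, against 1.31, 1.24 and 0.775 CPM in AX-MSU plants. The Malaka libraries of MGD2 were at 1.16, 2.26 and 1.69 CPM in HO plants, against 0.719, 1.13 and 0.808 CPM in AX plants. As with SQD2 the groups overlapped in MSU and did not in Malaka soil. The log2FC of 0.88 within Malaka (0.02 to 1.73) was the largest of the 9 genes in any comparison and did not pass the test (FDR 0.288), nor did the 0.24 within MSU (-0.57 to 1.05, FDR 0.819) or the 0.54 over both soils (-0.05 to 1.14, FDR 0.278). Its counts were 8 to 31 per library.

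For all 3 lipid genes the log2FC of HO over AX was above 0 in both soils, except that within MSU it turned for SQD2 under total counts alone (-0.11) or without AX-MSU replicate 3 (-0.05) and for MGD2 without HO-MSU replicate 3 (-0.04). Non-overlap of this kind is common here: within Malaka, where it held for SQD2 and MGD2, 10.1% of all genes tested had every HO library above every AX library, and within MSU, where it held for SQD1, 12.4% did.

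PHO1 (chr3:8387398-8393467, minus strand, 15 exons), the exporter that loads phosphate into the xylem, had values below 0 for HO over AX that did not pass the test. It was at 2.99, 3.61 and 2.79 CPM in HO-MSU plants, against 3.88, 5.25 and 7.12 CPM in AX-MSU plants. With Malaka soil, PHO1 was at 2.79, 5.92 and 6.21 CPM in HO plants, against 5.27, 6.16 and 6.47 CPM in AX plants. The HO-MSU libraries all lay below the AX-MSU libraries, which was so for 12.4% of all genes tested, while in Malaka soil only HO-Malaka replicate 1 was clear of the AX range.

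The log2FC of PHO1 was -0.76 within MSU (-1.27 to -0.25), -0.29 within Malaka (-0.79 to 0.21) and -0.52 over both soils (-0.89 to -0.15), with FDRs of 0.0626, 0.623 and 0.0638. The alternatives fell on both sides of the threshold. Within MSU it passed under 4 of 7 other settings and without HO-Malaka replicate 1 (FDR 0.017), HO-Malaka replicate 2 (0.0437) or AX-MSU replicate 1 (0.0229), and it was at up to 0.344 with another library left out. Over both soils it passed under 3 of 7 settings and without HO-Malaka replicate 2 (0.0327), HO-Malaka replicate 3 (0.0236) or AX-MSU replicate 1 (0.0384), and it was at up to 0.218 with another left out. Its sign turned within Malaka without HO-Malaka replicate 1 (log2FC 0.03). Between the soils PHO1 was at -0.62 in HO plants, MSU over Malaka (-1.14 to -0.10, FDR 0.427), and at -0.15 in AX plants (-0.64 to 0.34, FDR 0.908).

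PHO2 and the miR399 family meet at sites in the 5′ part of the PHO2 transcript. The mature forms annotated for the 6 MIR399 genes share 1 seed, given in capitals (bases 2 to 8), and 3 of them are shown.
miR399a at chr1:10227165-10227185, plus strand: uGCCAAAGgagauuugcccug
miR399b at chr1:23345387-23345407, minus strand: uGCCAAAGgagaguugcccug
miR399f at chr2:14445084-14445104, plus strand: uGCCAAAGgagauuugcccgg
PHO2 (chr2:14277558-14283113, minus strand, 9 exons) holds 5 sites upstream of its coding region, shown in transcript order with the bases opposite the seed in capitals, followed by the sites of the decoy transcripts AT4 and IPS1, which carry a bulge of 3 bases in the middle.
PHO2 at chr2:14282106-14282126: tagggcaaatcttCTTTGGCa
PHO2 at chr2:14281973-14281993: tagggcatatctcCTTTGGCa
PHO2 at chr2:14281884-14281904: ttgggcaaatctcCTTTGGCa
PHO2 at chr2:14281827-14281847: tcgagcaaatctcCTTTGGCa
PHO2 at chr2:14281770-14281790: tagagcaaatctcCTTTGGCa
AT4 at chr5:895149-895172: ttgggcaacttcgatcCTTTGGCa
IPS1 at chr3:3051224-3051247: ttgggcaacttctatcCTTTGGCa

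PHO2 was among the steadiest of the 10 genes, with a coefficient of variation of 7.34% over all 12 libraries. It was at 36.7 to 39.7 CPM in HO-MSU plants, against 35.7 to 43.7 CPM in AX-MSU plants, and at 36.1 to 39.5 CPM in HO-Malaka plants, against 39.0 to 45.0 CPM in AX-Malaka plants. The log2FC was -0.002 within MSU (-0.20 to 0.20), -0.12 within Malaka (-0.32 to 0.09) and -0.06 over both soils (-0.20 to 0.09, FDR 0.697). For PHO2 the interval over both soils covers ratios of 0.869 to 1.06 only. Of the MIR399 primary transcripts, MIR399B had 1 count in the 12 libraries and the other 5 had 0, which with long-RNA libraries does not measure the mature miRNA.

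PHR1 (chr4:14132811-14135292, minus strand, 8 exons), known to be set mainly by its partners and not by its own transcript, was as steady. It was at 19.0 to 20.3 CPM in HO-MSU plants, against 19.4 to 20.7 CPM in AX-MSU plants, and at 20.3 to 21.4 CPM in HO-Malaka plants, against 16.5 to 22.0 CPM in AX-Malaka plants. The log2FC over both soils was 0.06 (-0.11 to 0.22, FDR 0.745). The HO-MSU libraries lay just below the HO-Malaka libraries, as for 7.03% of all genes tested, with a log2FC of -0.07 (-0.30 to 0.15, FDR 0.89). PHR1 shares 59 bases with AT4G28600 on the other strand, and whether strand was used in counting is not given in the sources used here.

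PHF1 (chr3:19353867-19357261, minus strand, 10 exons) lets PHT1 phosphate transporters leave the endoplasmic reticulum. It was at 2.75, 1.78 and 2.19 CPM in HO-MSU plants, against 1.61, 1.66 and 2.04 CPM in AX-MSU plants. With Malaka soil, PHF1 was at 1.86, 1.60 and 1.48 CPM in HO plants, against 1.76, 2.33 and 1.92 CPM in AX plants. The groups overlapped in both soils, with a log2FC of 0.33 (-0.25 to 0.92, FDR 0.604) within MSU, -0.28 (-0.91 to 0.34, FDR 0.72) within Malaka and 0.61 (-0.24 to 1.47, FDR 0.76) for the interaction.

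Some pairs of the genes varied together across libraries and others in opposite directions. Over the 12 libraries the 36 pairs of the 9 tested genes had Pearson r of log2 CPM between -0.69 and 0.56 with a median of 0.02, and 18 pairs were above 0; the libraries share their scaling and fall into 4 groups, so these values only describe them. SPX1 and SPX2 had an r of 0.33. After the group means were taken off, the highest r were 0.731 for SPX1 with SQD1, 0.680 for SPX2 with SQD2 and 0.625 for SQD1 with SQD2, and the lowest were -0.806 for SQD2 with PHO1 and -0.730 for SQD1 with PHO1. The 5 other genes with the highest r to SPX1 were AT5G60160 (0.941), ADF1 (0.906), FAD7 (0.887), UBL5 (0.879) and IGPD (0.864), the highest of 17588 in 12 libraries. With Spearman's rank correlation 2 of these 5 were kept, AT5G60160 and FAD7. None of the 5 is on the wider list of phosphate genes described next.

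A wider list of 59 phosphate genes, sorted by role, gives the pathway around the 10, and 33 of the 59 passed the filter on low counts, 1 of them (PHT1;1) only through HO libraries and 2 (AT1G69480 and LPR1) only through AX libraries. Over both soils 4 of the 33 were called higher in HO plants and 1 lower, against 5.01% and 5.16% of all genes. Within MSU 3 were higher and 2 lower (3.3% and 3.28% of all genes), and within Malaka 2 were higher and 0 lower (2.49% and 1.89%). The counts of higher genes over both soils and within MSU include PHT1;1, which had to differ in order to be tested. The median log2FC over both soils was 0.09, where that of all genes tested was 0.01. Between the soils and in the interaction edgeR called 0 of 33, with 2 at an unadjusted p under 0.05 in HO plants, 2 in AX plants and 3 in the interaction. Among the alternatives WRKY6 was called higher in MSU than Malaka in AX plants without the filter (log2FC 0.73, FDR 0.0244, against 0.72 and 0.0952 with it), and AT3G01310 was called higher in MSU in HO plants without HO-Malaka replicate 2 (log2FC 0.46, FDR 0.0339, against 0.29 and 0.405 with it).

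**Figure D4:**
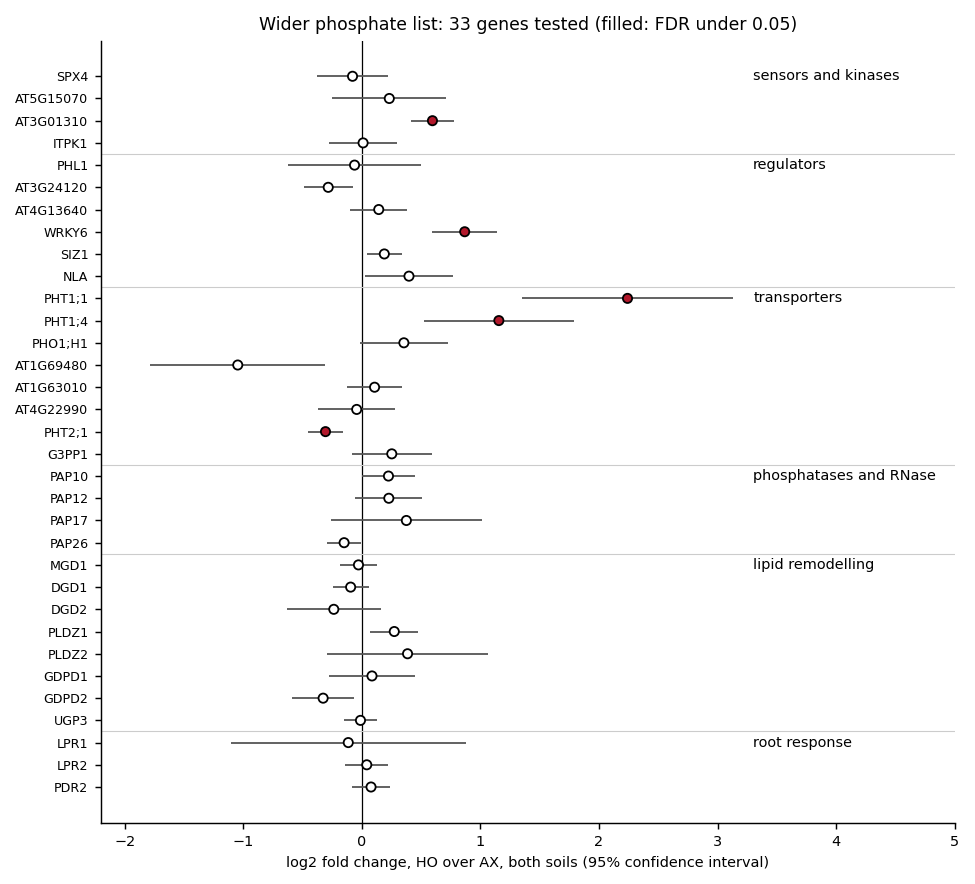
Log2 fold change of HO over AX plants over both soils for the 33 genes of the wider phosphate list that were tested, by role, with 95% confidence intervals. Filled points passed an FDR of 0.05: AT3G01310, WRKY6, PHT1;1 and PHT1;4 to the right of 0 and PHT2;1 to the left. PHT1;1 passed the filter on low counts through HO libraries alone.

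Among the sensors and kinases 1 of 4 genes tested was called. AT3G01310, the Arabidopsis homolog of yeast Vip1, belongs to the kinases that make the inositol pyrophosphates SPX proteins bind. It was at 25.1, 31.5 and 29.3 CPM in HO-MSU plants, against 18.6, 17.1 and 17.5 CPM in AX-MSU plants. With Malaka soil, AT3G01310 was at 20.4, 29.1 and 21.4 CPM in HO plants, against 16.6, 17.7 and 15.6 CPM in AX plants. HO libraries were above AX libraries without overlap in both soils. Of all genes tested 12.4% were so within MSU and 10.1% within Malaka, and the share for both soils at once was not computed. AT3G01310 rose 1.62-fold within MSU (FDR 0.000238), 1.4-fold within Malaka (FDR 0.0193) and 1.51-fold over both. The Malaka call was lost without HO-Malaka replicate 2 (FDR 0.113), AX-Malaka replicate 1 (0.0675) or AX-Malaka replicate 3 (0.0993), or with total counts alone (0.209).

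Of the 10 regulators 6 were tested and 1 was called. WRKY6, a transcription factor known in Arabidopsis to repress PHO1, was at 11.9, 7.58 and 11.1 CPM in HO-MSU plants, against 6.44, 6.91 and 5.36 CPM in AX-MSU plants. With Malaka soil, WRKY6 was at 8.20, 7.15 and 8.68 CPM in HO plants, against 3.28, 4.34 and 3.64 CPM in AX plants. HO libraries again lay above AX libraries in both soils, as for 12.4% of all genes tested within MSU and 10.1% within Malaka. WRKY6 rose 1.62-fold within MSU (FDR 0.0107), 2.12-fold within Malaka (FDR 0.000569) and 1.82-fold over both soils (log2FC 0.87, 0.60 to 1.14). The MSU call was lost without HO-MSU replicate 1 (FDR 0.095), HO-MSU replicate 3 (0.0622) or AX-MSU replicate 3 (0.0735), or with total counts alone (0.15).

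Of the 15 transporters 8 were tested, with 2 called higher and 1 lower in HO plants over both soils. PHT2;1, the phosphate transporter of the chloroplast envelope, was at 101, 91.3 and 87.3 CPM in HO-MSU plants, against 119, 122 and 123 CPM in AX-MSU plants. The Malaka libraries of PHT2;1 were at 118, 96.8 and 91.2 CPM in HO plants, against 118, 121 and 120 CPM in AX plants. Each HO library was below the AX libraries of its soil, HO-Malaka replicate 1 by a small margin. Of all genes tested 12.4% were so within MSU and 9.11% within Malaka. PHT2;1 fell by 0.38 on the log2 scale within MSU (FDR 0.0132) and by 0.31 over both soils (FDR 0.00429). Its -0.23 within Malaka did not pass (FDR 0.221) but was called without HO-Malaka replicate 1 (log2FC -0.35, FDR 0.0269). Of the leaf markers CA1 was called lower over both soils too (log2FC -0.27, FDR 0.0136). RBCS1A was at -0.225 and did not pass (FDR 0.0677), and LHCB1.1 was at 0.0 (FDR 0.999). The part of these markers in the result for PHT2;1 was not tested. The call within MSU was lost without HO-MSU replicate 2 or 3 or AX-MSU replicate 2 or 3 (FDR 0.0523 to 0.0998).

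PHT1;1 and PHT1;4, plasma membrane transporters that take up phosphate in roots, were low in all libraries and called higher in HO plants over both soils. PHT1;1 had 17, 30 and 11 counts in HO-MSU plants, against 2, 3 and 1 in AX-MSU plants. In Malaka soil it had 14, 6 and 9 counts in HO plants, against 1, 4 and 4 in AX plants. All 6 HO libraries were above the AX libraries of their soil, as for 12.4% of all genes tested within MSU and 10.1% within Malaka. PHT1;1 was called higher within MSU (FDR 0.00159) and over both soils (FDR 0.000709) but not within Malaka (FDR 0.194). It passed the filter on low counts through HO libraries alone, with 5 of them and 0 AX libraries over its level, so it had to differ in order to be tested, and the AX-MSU libraries were all at or under the floor of 3 counts per library. The normalized ratio of its 87 HO to 15 AX counts was 5.17, with an exact binomial interval of 2.97 to 9.62 for counting error. Of its 50-base windows 42.5% also occur elsewhere in the genome, and 45.6% of those of its relative PHT1;2 do. How reads with several places were counted is not given, so counts of either gene may miss or share reads. The sum of PHT1;1 and PHT1;2 was at 1.06 to 2.05 CPM in HO-MSU plants, against 0.141 to 0.239 in AX-MSU plants. It was at 0.847 to 1.22 CPM in HO-Malaka plants, against 0.160 to 0.808 in AX-Malaka plants. PHT1;4 was at 1.59, 1.43 and 2.26 CPM in HO-MSU plants, against 1.07, 0.691 and 0.775 CPM in AX-MSU plants, and at 1.63, 1.60 and 0.776 CPM in HO-Malaka plants, against 0.879, 0.440 and 0.202 CPM in AX-Malaka plants. Its MSU groups did not overlap and its Malaka groups did, and it rose 2.23-fold over both soils (1.44 to 3.45, FDR 0.0138), with neither soil passing alone (FDR 0.156 within MSU and 0.12 within Malaka).

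AT4 (AT5G03545, chr5:894582-895517, plus strand, 1 exon), the starvation-induced decoy of miR399 whose site is shown above, was under the filter and was singled out after its values were seen. It had 9, 16 and 4 counts in HO-MSU plants, against 0, 0 and 1 in AX-MSU plants. In Malaka soil it had 9, 4 and 3 counts in HO plants, against 0, 0 and 1 in AX plants. HO libraries therefore held 45 counts and AX libraries 2, a normalized ratio of 20.0 with an exact binomial interval of 5.23 to 171 that covers counting error only. Every AX library was under the floor of 3 counts per library, and the lowest HO library was at it. The size of this ratio thus rests on an AX level that is hardly measured. Without the filter on low counts edgeR gave AT4 an FDR of 0.000598 over both soils, 0.02 within MSU and 0.152 within Malaka. Of the other phosphate genes under the filter that had counts, none passed over both soils in that fit. Their log2FC ran from -1.9 for MIR827 to 3.2 for PHT1;7, with PECP1 at -0.02 and NPC4 at -0.08. IPS1, the related decoy, had 2 counts in HO libraries and 0 in AX libraries.

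Summed root markers other than PYK10 were higher in HO than in AX libraries without overlap in the MSU soil, and overlapped in Malaka soil. No test was run on these sums. The 9 root markers other than PYK10 (CASP1 to CASP5, COBL9, EXPA7, IRT1 and PRP3; CASP4 had 0 counts) summed to 8 to 19 counts per library in HO-MSU plants, against 3 to 4 in AX-MSU plants, and to 3 to 12 in HO-Malaka plants, against 4 to 6 in AX-Malaka plants. As CPM these sums were 0.603 to 0.847 in HO-MSU plants, against 0.207 to 0.282 in AX-MSU plants, and 0.282 to 0.847 in HO-Malaka plants, against 0.252 to 0.479 in AX-Malaka plants. PYK10 was called higher in HO plants over both soils, close to the threshold (log2FC 0.24, FDR 0.0491). Neither soil passed alone (FDR 0.345 within MSU and 0.167 within Malaka). The part of root material in the values of AT4, PHT1;1 and PHT1;4 was not tested.

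**Figure D5:**
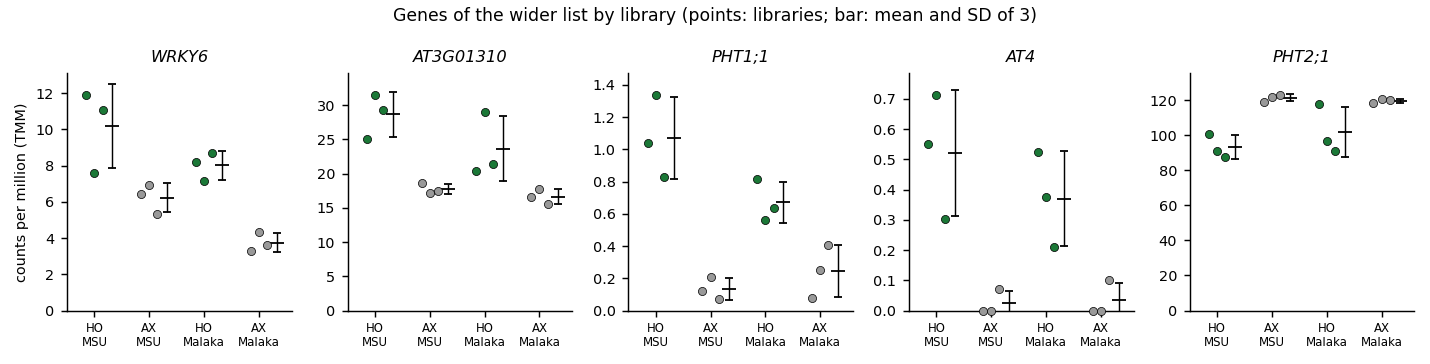
CPM of 5 genes of the wider list in the 12 libraries (green, HO; grey, AX), with the mean and SD of 3 beside each group. WRKY6, AT3G01310, PHT1;1 and AT4 lie higher and PHT2;1 lower in HO plants; PHT1;1 and AT4 rest on at most 30 and 16 counts per library.

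Phosphatases and other enzymes of lipid remodelling gave 1 call. Of 7 phosphatase and RNase genes 4 were tested and 0 were called between HO and AX plants, with a median log2FC of 0.23 over both soils. Of 11 further lipid genes 8 were tested and 1 was called, within MSU only. GDPD2, which breaks down glycerophosphodiesters, was at 5.38, 6.07 and 5.66 CPM in HO-MSU plants, against 8.89, 7.80 and 9.58 CPM in AX-MSU plants, without overlap. Within MSU 12.4% of all genes tested had every HO library below every AX library. GDPD2 was at 7.27, 5.92 and 7.98 CPM in HO-Malaka plants, against 6.55, 6.73 and 8.49 CPM in AX-Malaka plants, with overlap. GDPD2 fell by 0.61 on the log2 scale within MSU (FDR 0.0143), while the value within Malaka was -0.02 (FDR 0.977). The interaction of -0.60 did not pass (FDR 0.442), and the MSU call was lost without HO-MSU replicate 1 (FDR 0.067), HO-MSU replicate 3 (0.0531) or AX-MSU replicate 3 (0.0798). Over both soils GDPD2 did not pass (log2FC -0.33, FDR 0.106), though it did without HO-Malaka replicate 3 (log2FC -0.40, FDR 0.0498). MGD3, another galactolipid synthase of starved plants, was under the filter and is named after its values were seen. It had 5, 7 and 1 counts in HO-MSU plants, against 1, 0 and 0 in AX-MSU plants, and 11, 0 and 5 in HO-Malaka plants, against 1, 1 and 2 in AX-Malaka plants. The normalized ratio for MGD3 was 5.17 (1.98 to 17.1, exact binomial), with every AX library under the floor of 3 counts per library. Without the filter edgeR gave MGD3 an FDR of 0.126 over both soils. Of the root response genes LPR1, LPR2 and PDR2, all 3 were tested and 0 were called.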

How the data were processed

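The authors deposited raw counts of reads per gene for the 12 libraries, not normalized, and their processing notes name Trimmomatic 0.39, STAR and featureCounts with the TAIR10 build. Libraries were stranded with single reads of 50 bases. The annotation counted on, the treatment of reads with several places and the strand setting are not given in the sources used here.

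Genes were filtered with filterByExpr (minimum count 10, minimum total 15, groups of 3), scaled by TMM and tested with glmQLFit and glmQLFTest of edgeR 4.0.16 in R 4.3.3, on all 17588 genes with Benjamini-Hochberg adjustment. A model of the 4 groups gave the contrasts within soils, between soils and the interaction, and a model with soil and treatment gave HO against AX over both soils. Intervals are 95% and use the fit's degrees of freedom. The code was tested on simulated data. Sequences, exons and motif positions were read from TAIR10.1 with its RefSeq annotation, whose gene names were used, so that genes without a RefSeq symbol are given by locus. Correlations used log2 CPM with a prior count of 2.

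A replicate is a pool of 8 rosettes from 4 FlowPots. The paper mentions no molecular identifiers and PCR copies may be counted, so counting intervals and the floor of 3 counts cover counting error only. The 10 genes, the wider list of 59, the marker lists and the tests were chosen with earlier results of these data known. The text names the 10 genes, genes of the wider list called in a comparison, and the 5 genes most like SPX1 by Pearson r. Some genes of the wider list under the filter are named as well, after their values were seen. Alternatives were DESeq2 1.42.0, RLE factors, total counts alone, no filter, no ribosomal RNA or organelle genes, a replicate block, the 6 libraries of a comparison fitted alone, no term for soil, and each library left out. All 12 columns of the table were used.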

Additional observations from a re-analysis of the deposited data

How the results depend on the processing

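The number of the 9 genes called was 0 within Malaka, between the soils and in the interaction under every alternative run. Within MSU it was 1 and became 2 (SQD1 and PHO1) without the filter, with the replicate block and in the 6 libraries alone, and with libraries left out it ranged from 0 to 2. Over both soils it was 1 and became 2 without the filter and with the block, with a range of 1 to 2 when libraries were left out. Under total counts alone it remained 1 in both, but the gene was PHO1 (log2FC -0.93, FDR 0.0257 within MSU, and -0.63, FDR 0.0316 over both soils) in place of SQD1. That scaling also moved the share of calls that were higher in HO plants from 50.1% to 29.1% within MSU and from 49.2% to 31.2% over both soils, and the share higher in MSU from 41.2% to 30.4% in AX and from 33.3% to 17.6% in HO plants.

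Under total counts alone the sign turned for values that passed no test: SQD2 within MSU (-0.11), PHF1 (-0.066) and PHR1 (-0.051) over both soils, SQD1 (-0.052) and PHO2 (-0.039) between the soils in HO plants, and PHO2 in the interaction (-0.009). With libraries left out the sign also turned for uncalled values near 0. Within Malaka the ranges were -0.26 to 0.47 for SPX1, -0.088 to 0.271 for SPX2, -0.511 to 0.028 for PHO1 and -0.11 to 0.10 for GDPD2. Within MSU they were -0.047 to 0.148 for SQD2, -0.045 to 0.523 for MGD2 and -0.057 to 0.095 for PHO2, and over both soils -0.077 to 0.135 for PHF1. Between the soils they were -0.18 to 0.54 for SPX1, -0.008 to 0.386 for SPX2 and -0.390 to 0.053 for PHO1 in AX plants, and -0.054 to 0.138 for SQD1, -0.21 to 0.10 for SQD2 and -0.023 to 0.047 for PHO2 in HO plants. Of 1358 values of named genes, 816 of 864 with a library left out and 477 of 494 under the other alternatives kept their direction and side of the threshold.

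Same-numbered libraries deviated together only weakly (r -0.03 to 0.19 over 18 pairs, 1 of them over 0.1). That is under the level set for pairing, so the values reported have no block. Still, 9 of 12 libraries correlated best with their own number, a hint from the data and not the design. In all 4 groups replicate 1 had the highest organelle share (52.2% to 57.7%) and the lowest share of ribosomal RNA (9.88% to 14.7%) of its group. PHO1 under the replicate block had a log2FC of -0.74 (FDR 0.0256) within MSU and -0.53 (FDR 0.0248) over both soils. The block gave 116 calls over all genes between the soils in HO plants, 192 in AX plants and 104 in the interaction, against 51, 114 and 49 without it; no filter gave 189, 258 and 181, total counts alone 17, 23 and 14, and the 6 libraries alone 18 and 212 between the soils. Within Malaka total counts alone gave 376 calls against 771. The intervals of SPX1, SPX2, MGD2, PHO1 and PHF1 span over 1 log2 unit within each soil, and how far depth or the spread between replicates sets them was not tested. The causes of these changes were not tested.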
